A study of Mus musculus with 8 samples.

Results

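The genes described here are 42 components of the BMP, Nodal, activin and TGF-beta signalling pathways, chosen by gene symbol out of the 32567 genes in the RNA-seq count table of this study of huntingtin (Htt) loss. The list holds 8 BMP or GDF ligands, 4 genes of the Nodal system, 5 activin or TGF-beta ligand genes, 8 receptors, 8 Smads, 4 Id genes and 5 secreted antagonists or modulators. RNA was taken from mouse embryonic stem cells (ESC) of a wild-type line and of a line that carries the targeted Hdh ex4/5 allele on both chromosomes (Htt-null), and from the cells that each line gave after embryoid body formation and retinoic acid treatment (RA-DIFF). Poly-A RNA was sequenced, with 1 library for each of the 4 conditions. Each genotype is thus 1 ES cell line, no difference has a replicate check, and a difference between genotypes cannot be told apart from a difference between lines.

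Ligands of this superfamily are secreted dimers that bring together a type I and a type II serine/threonine kinase receptor. BMP receptors phosphorylate Smad1, Smad5 and Smad9, and Nodal, activin and TGF-beta receptors phosphorylate Smad2 and Smad3. Both sets then enter the nucleus with Smad4, while Smad6 and Smad7 inhibit the receptors. The Id genes, which encode dominant negative partners of basic helix-loop-helix factors, are classical BMP targets and help to hold mouse ES cells undifferentiated. Nodal and its feedback inhibitors Lefty1 and Lefty2 are active in pluripotent cells, and antagonists such as Noggin and Chordin are known for their role in neural induction.

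The libraries held between 63617410 and 110569127 counts on genes, with TMM factors between 0.976 and 1.03. Levels are in CPM, the counts a gene would have in a library of 1000000 counts after TMM scaling. Htt itself was at 165.9 CPM in wild-type ESC and 111.3 in Htt-null ESC, but at 73.3 in the wild-type-labelled RA-DIFF library and 98.7 in the null-labelled one. The gene total sums all Htt exons, so counts from exons outside the targeted part are included. In RA-DIFF the direction goes against the label. In the log2 expression table supplied with the study, the RA-DIFF columns also follow the deposited count columns of the opposite genotype, whereas the ESC columns follow their own. RA-DIFF libraries are therefore called by their labels below, and with the labels exchanged every RA-DIFF genotype difference keeps its size and changes its sign. Marker genes matched the stages. The summed level of 8 pluripotency genes was 5388 and 4527 CPM in wild-type and Htt-null ESC and 266.6 and 225.4 CPM in the wild-type-labelled and null-labelled RA-DIFF libraries. Sox2, at 577.7, 495.5, 213.1 and 212.4 CPM in this order, made up most of the RA-DIFF sums. Between the RA-DIFF libraries 6 of the 8 genes were lower under the Htt-null label and none was higher. The summed level of 8 neural progenitor genes was 122.8, 132.0, 4318 and 5500 CPM in the same order, and between the RA-DIFF libraries 1 of the 8 (Vim) was higher under the Htt-null label and 3 were lower, with a median log2 ratio of -0.27. Wherever 4 values of a gene follow each other below, they stand in this order: wild-type ESC, Htt-null ESC, RA-DIFF labelled wild-type, RA-DIFF labelled Htt-null.

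A gene was counted as higher or lower when its log2 ratio between a pair of libraries was past 0.75 in size and its log2 CPM, averaged across libraries, exceeded 0. This is a rule of size and not a test. An alternative also asked for a p-value under 0.05 in edgeR's exact test with an assumed dispersion of 0.1. That spread was assumed and not estimated from these libraries. The genes that lose their call under this alternative are named below. Intervals are 95% exact binomial intervals of the ratio and cover counting error only. Of the 42 genes, 41 passed the expression limit, and Gdf6 did not. In bulk RNA, fewer cells of a type and less RNA per cell cannot be told apart.

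RA-differentiation went with a change in most of the pathway. In the libraries labelled wild-type, 23 of the 42 genes were higher in RA-DIFF than in ESC and 11 were lower, together 81.0% of the list, where 60.1% of the 15492 genes above the expression limit were past the same fold (33.9% higher and 26.1% lower). In the libraries labelled Htt-null, 26 were higher and 10 lower, together 85.7%, against 59.2% of all genes (34.3% higher and 24.8% lower). The median log2 ratio of the 42 genes was 1.06 and 1.58, where that of all genes above the limit was 0.12 and 0.17. These shares lie above those of the whole table in both pairs of libraries, and the higher genes account for it, since the lower shares of the list, 26.2% and 23.8%, are near the background. The 42 genes were chosen with earlier results of these data known. The comparisons with all genes, here and below, therefore describe this list only.

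**Figure D1:**
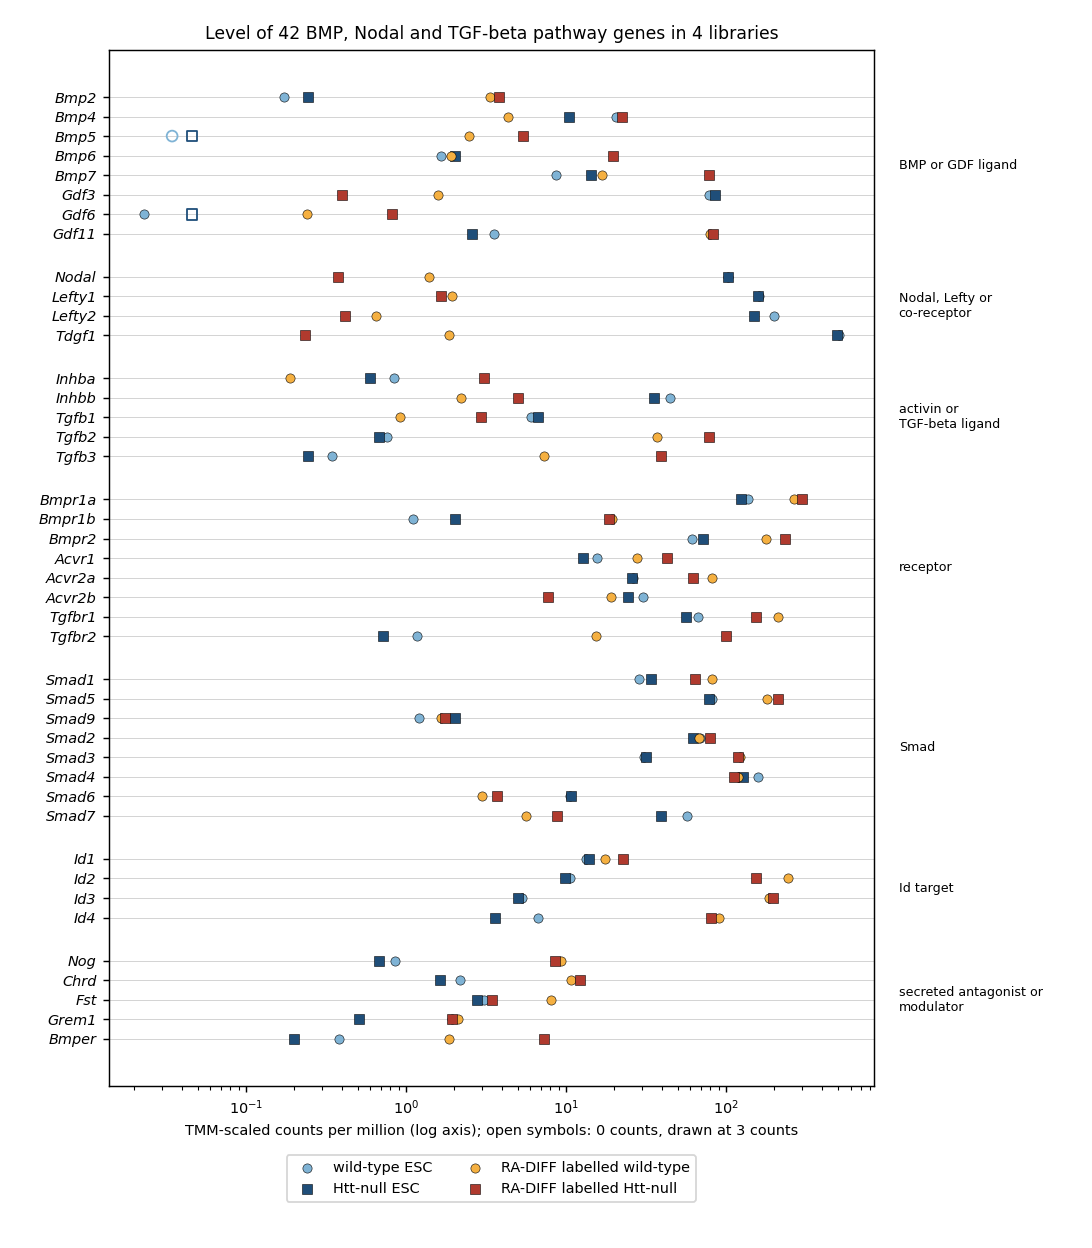
Level of each of the 42 genes in the 4 libraries, in TMM-scaled CPM on a log axis, grouped by role, with 1 point per library and open symbols at 3 counts where a library had 0. The Nodal genes and Gdf3 lie far to the right in both ESC libraries, whereas the Id genes other than Id1, Tgfb2, Tgfb3, Gdf11 and Tgfbr2 lie to the right in both RA-DIFF libraries.

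Under both genotype labels 22 of the 42 genes (52.4%) were higher, where 28.8% of all genes above the limit were higher in both. Lower in both were 9 (21.4%), near the 21.1% of all genes: Gdf3, Nodal, Lefty1, Lefty2, Tdgf1, Inhbb, Tgfb1, Smad6 and Smad7. Bmp4 and Inhba went in opposite directions. Fst was past the fold only in the libraries labelled wild-type, and Bmp6, Acvr2b and Grem1 only in those labelled Htt-null. Smad2, Smad4, Smad9 and Id1 were past it in neither, and Gdf6 was below the expression limit. With the assumed dispersion of 0.1, Bmp7, Smad5, Bmpr1a and Acvr1 lost their call under the wild-type label, and Tgfb1, Bmpr1a, Bmp4, Smad1 and Acvr2a under the Htt-null label. With the RA-DIFF labels exchanged, Bmp6 and Acvr2b would be past the fold in wild-type only (log2 ratios of 3.56 against -0.09, and -1.97 against -0.36) and Fst in Htt-null only (0.17 against 1.52), Bmp7 would lose its call in Htt-null (0.24), and Id1 would gain one in wild-type (0.76). The calls "only" rest on the fold limit in each pair, and the difference between the pairs was not tested.

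**Figure D2:**
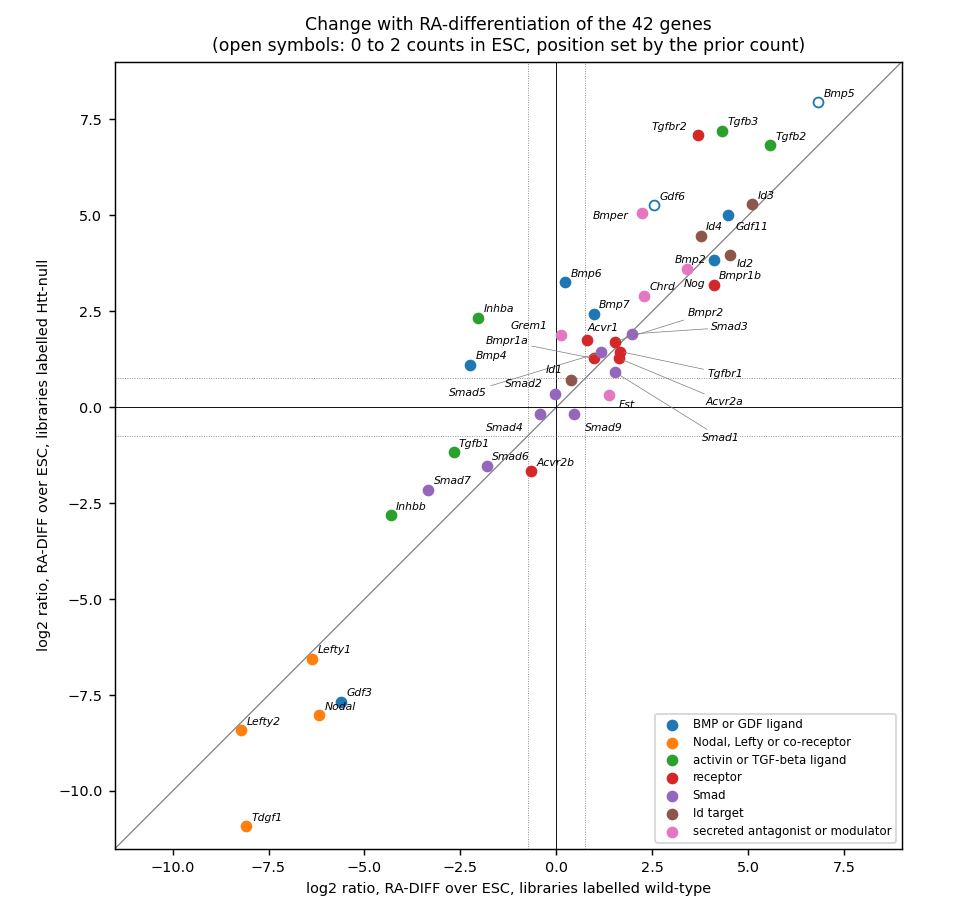
Log2 ratio of RA-DIFF over ESC for the 42 genes in the libraries labelled wild-type (x axis) and Htt-null (y axis), coloured by role, with the line of equal ratios and dotted lines at 0.75 on either side of 0. Tdgf1, Nodal, Gdf3 and both Lefty genes lie at the lower left, and Bmp4 and Inhba in the quadrant of opposite signs. Tgfbr2, Bmp6, Tgfb3, Bmper and Gdf6 lie well above the line of equal ratios.

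Between the genotypes, few of these genes differed in ESC and more differed in RA-DIFF. In ESC, 1 gene was higher in the Htt-null library (Bmpr1b) and 4 were lower (Bmp4, Id4, Grem1 and Bmper), together 11.9% of the 42, against 8.61% of all genes above the limit (5.14% higher and 3.47% lower). Of these 5 genes Grem1 alone kept its call with a fold limit of 1, and Grem1 alone with the assumed dispersion of 0.1. In the same pair of libraries 7 of 14 fibroblast and mesenchyme markers were lower in Htt-null ESC and 1 was higher, with a median log2 ratio of -0.71, and 3 of 12 neuron markers were higher and none lower, with a median of 0.21. Their part in the ESC differences was not tested. In RA-DIFF, 11 were higher in the null-labelled library and 5 were lower, together 38.1%, against 20.7% of all genes (11.7% higher and 8.99% lower). The assumed dispersion of 0.1 removed Fst, Bmp5, Inhbb and Tgfb2 from these. The median log2 ratio of the 42 genes was -0.14 in ESC and 0.16 in RA-DIFF, where all genes above the limit had medians of -0.04 and -0.01. No gene of the 42 was past the fold in the same direction at both stages by label. The share of all genes with that pattern was not counted. With the RA-DIFF labels exchanged, Bmp4 and Bmper, which were lower in Htt-null ESC, would be lower at both stages. The ESC and RA-DIFF responses share libraries with the genotype comparisons, so each value below is given for itself.

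**Figure D3:**
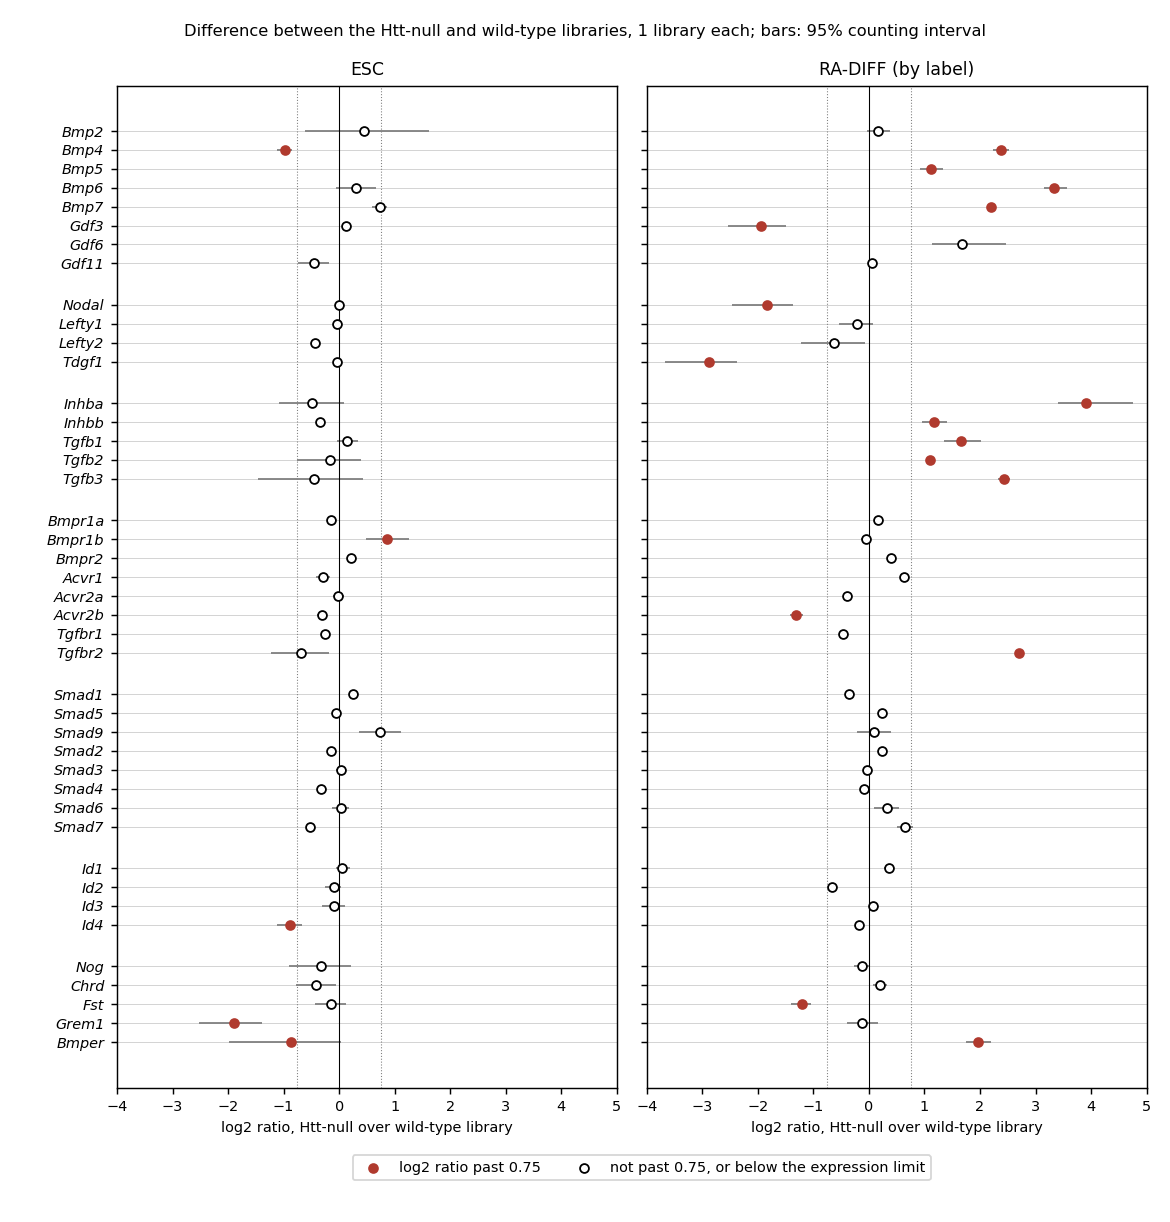
Log2 ratio of the Htt-null over the wild-type library in ESC (left) and, by label, in RA-DIFF (right), 1 library each, with bars for the 95% counting interval and filled points past 0.75. Bmp5 and Gdf6 are not drawn in ESC, where both libraries had at most 2 counts. In RA-DIFF all 5 activin and TGF-beta ligand genes, Tgfbr2 and 4 BMP ligands lie on the right, and Nodal, Tdgf1, Gdf3, Acvr2b and Fst on the left.

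The Nodal system was high in ESC and nearly silent in RA-DIFF. All 4 of its genes were lower in RA-DIFF in both pairs of libraries, where 26.1% and 24.8% of all genes were, with log2 ratios between -6.19 and -8.22 in those labelled wild-type and between -6.55 and -10.92 in those labelled Htt-null. Nodal, the ligand (chr10:61417972-61425338), was at 103.5, 103.0, 1.40 and 0.376 CPM. Tdgf1, which encodes the Nodal co-receptor Cripto (chr9:110939603-110946158), was at 507.4, 496.9, 1.86 and 0.234 CPM. Lefty1 (chr1:180935022-180938400), a secreted Nodal inhibitor, was at 161.2, 158.3, 1.95 and 1.67 CPM. Lefty2 (chr1:180893108-180899103), its neighbour and another inhibitor, was at 200.4, 148.7, 0.652 and 0.416 CPM. The pair are close copies of each other, so the split of reads between them is uncertain. A pseudogene copy, Tdgf1-ps1 on chromosome 16, held 1419, 994, 11 and 1 counts, beside 44000, 32411, 208 and 23 for Tdgf1.

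The ESC libraries differed little in this system, with log2 ratios of -0.01 for Nodal, -0.03 for Tdgf1, -0.03 for Lefty1 and -0.43 for Lefty2. In RA-DIFF the remaining signal was lower in the null-labelled library for Tdgf1, by a log2 ratio of -2.88 (-3.68 to -2.37), and for Nodal, by -1.84 (-2.46 to -1.37). Lefty1 and Lefty2 had ratios of -0.22 and -0.62, short of the limit. Gdf3, a ligand of pluripotent cells that also uses Cripto, was at 78.2, 85.3, 1.58 and 0.396 CPM and differed in the same way, with a log2 ratio of -1.94 (-2.54 to -1.49) in RA-DIFF. All of these rest on few counts, since the null-labelled RA-DIFF library held 23 counts of Tdgf1, 37 of Nodal and 39 of Gdf3. Beside them, 6 of the 8 pluripotency genes were also lower in that library, with a median log2 ratio of -2.73, and none of the 8 was at 0. Their part in the result was not tested.

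The sequence upstream of the Tdgf1 and Nodal transcript starts is shown because these genes changed together and because the forkhead factor Foxh1 is known to act with Smad2 and Smad3 on Nodal pathway genes. Each sequence is the 250 bases before the RefSeq start on GRCm38.p6, read 5′ to 3′ on the strand of the gene. Tdgf1 lies on the minus strand, with the window at chr9:110946159-110946408, and Nodal on the plus strand, with the window at chr10:61417722-61417971.
Tdgf1: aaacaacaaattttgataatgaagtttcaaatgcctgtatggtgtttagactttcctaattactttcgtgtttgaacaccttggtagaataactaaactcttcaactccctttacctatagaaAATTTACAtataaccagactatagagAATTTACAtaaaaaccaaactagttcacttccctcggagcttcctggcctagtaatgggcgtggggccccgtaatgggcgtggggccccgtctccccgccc
Nodal: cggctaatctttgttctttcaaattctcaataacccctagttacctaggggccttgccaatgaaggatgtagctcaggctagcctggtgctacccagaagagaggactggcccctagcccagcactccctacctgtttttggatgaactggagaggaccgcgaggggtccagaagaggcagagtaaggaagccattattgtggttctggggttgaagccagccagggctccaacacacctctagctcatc
Capitals mark matches to TGTNNATT, a Foxh1 motif, on either strand. In the Tdgf1 window they begin at -127 and -101 from the start and stand on the strand opposite to the gene. Tdgf1 was the 1 gene with this motif among the 29 of the 42 that have a window, and 12.21% of all 32851 windows, which run from 250 bases before to 50 bases after the start, hold it. The match describes the letters and says nothing about binding in these cells.

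The BMP and GDF ligands changed in composition. Per kb of exon, Bmp4 made up 77.8% of the summed level of Bmp2, Bmp4, Bmp5, Bmp6 and Bmp7 in wild-type ESC and 52.8% in Htt-null ESC, and Bmp7 18.2% and 40.5%. In the RA-DIFF libraries Bmp7 made up 51.3% under the wild-type label and 52.6% under the Htt-null label, and Bmp4 23.6% and 27.2%. The sum itself was 11.8, 8.78, 8.20 and 36.8 CPM per kb. It was thus highest in the null-labelled RA-DIFF library, with the other 3 libraries close together.

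Bmp4, which maintains self-renewal of ES cells together with LIF and patterns the ventral mesoderm and dorsal neural tube, was at 20.6, 10.4, 4.36 and 22.5 CPM. It was lower in Htt-null than in wild-type ESC (log2 ratio -0.98, -1.11 to -0.85) and higher in the null-labelled RA-DIFF library (2.37, 2.23 to 2.52). Its response to differentiation was -2.24 under the wild-type label and 1.11 under the Htt-null label, and with the RA-DIFF labels exchanged these would be 0.13 and -1.26. The ESC difference and the response under the Htt-null label both lost their call with the assumed dispersion of 0.1. Bmp7, a broadly acting BMP of mesenchyme, kidney and neural tissue, was at 8.61, 14.3, 16.9 and 77.9 CPM. Its log2 ratio between genotypes was 0.73 in ESC, just short of the limit, and 2.20 (2.13 to 2.28) in RA-DIFF. Bmp6, a ligand known for regulation of hepcidin and bone, was at 1.65, 2.04, 1.92 and 19.6 CPM. Of its 4 libraries only the null-labelled RA-DIFF library was above 2.04 CPM, with a ratio of 3.34 (3.15 to 3.56) to the other RA-DIFF library. Bmp5, a close relative of Bmp6 and Bmp7, had 0 counts in both ESC libraries and 278 and 534 in RA-DIFF, at 2.48 and 5.42 CPM. Against a floor of 3 counts per library this is at least 71.7-fold higher in RA-DIFF under the wild-type label and at least 117.9-fold higher under the Htt-null label, taking the RA-DIFF count as exact. The lower ends of the counting intervals, which also hold the error of that count, are lower, at log2 ratios of 5.86 and 6.58. Between the RA-DIFF libraries its ratio was 1.12 (0.92 to 1.34).

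The upstream sequence of Bmp6 is shown because Bmp6 had the largest difference between the RA-DIFF libraries among the BMP ligands. It is the 250 bases before the RefSeq start on the plus strand, at chr13:38345466-38345715 on GRCm38.p6.
Bmp6: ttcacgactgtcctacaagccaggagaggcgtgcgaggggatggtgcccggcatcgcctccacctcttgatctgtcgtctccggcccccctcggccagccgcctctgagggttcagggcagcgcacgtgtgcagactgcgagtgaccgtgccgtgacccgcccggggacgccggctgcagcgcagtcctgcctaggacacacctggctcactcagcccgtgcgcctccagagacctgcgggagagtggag
It has no capitals, since it holds neither TGTNNATT nor GGCGCC, a GC-rich element that BMP Smads can bind. Its GC content was 68.8%, against 53.2% for the Nodal window.

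Bmp2, which acts in heart and bone formation, was at 0.173, 0.245, 3.37 and 3.80 CPM, higher in RA-DIFF by log2 ratios of 4.12 and 3.84 and with no genotype ratio past the limit. Gdf11, a ligand of axial patterning and neurogenesis, was at 3.55, 2.58, 79.5 and 82.9 CPM. Both ligands followed the stage and not the genotype label. Gdf6, a BMP of joint and eye development, had 2, 0, 27 and 81 counts. Its log2 ratio with differentiation was 2.54 (1.39 to 6.5) under the wild-type label, and against the floor of 3 counts it was at least 17.9-fold higher in RA-DIFF under the Htt-null label, with a counting interval that begins at a log2 ratio of 3.83.

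The TGF-beta ligand genes differed in isoform between the stages. Per kb of exon, Tgfb1 made up 83.6% of the 3 TGF-beta genes in wild-type ESC and 87.5% in Htt-null ESC, but 2.10% and 2.25% in the wild-type-labelled and null-labelled RA-DIFF libraries. Tgfb2 took 73.1% and 52.7% there and Tgfb3 24.8% and 45.0%. The sum of the 3 genes was 1.43, 1.52, 8.70 and 25.8 CPM per kb.

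Tgfb1, the isoform best known in immune and wound healing settings, was at 6.01, 6.68, 0.919 and 2.94 CPM. Tgfb2, which acts in neural crest, heart and eye, was at 0.761, 0.675, 36.8 and 78.9 CPM, and its log2 ratios with differentiation were 5.56 and 6.82. Tgfb3, known for palate fusion, was at 0.346, 0.245, 7.29 and 39.4 CPM, with ratios of 4.31 and 7.20. Tgfb3 overlaps Ttll5 on the opposite strand, which held 3031, 2153, 3260 and 4079 counts against 30, 16, 817 and 3878 for Tgfb3. The methods give default settings for the counting apart from its overlap mode and do not name the strand option, and whether reads of the overlap were separated by strand was not tested.

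The activin subunit genes differed from each other. Inhbb, the beta-B subunit, was at 44.7, 35.3, 2.21 and 5.01 CPM and lower in RA-DIFF by log2 ratios of -4.32 and -2.81. Inhba, the beta-A subunit, was at 0.842, 0.598, 0.187 and 3.10 CPM. Its ratio with differentiation was -2.04 (-2.94 to -1.45) under the wild-type label, on 73 and 21 counts, and 2.33 (1.89 to 2.89) under the Htt-null label, on 39 and 305 counts. With the RA-DIFF labels exchanged the ratios would be 1.86 and -1.57. Inhba was thus highest in the null-labelled RA-DIFF library and lowest in the other RA-DIFF library.

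In ESC none of these 5 ligand genes was past the fold between genotypes, where 8.61% of all genes were, and their log2 ratios ran from -0.48 to 0.15. In RA-DIFF all 5 were higher in the null-labelled library: Inhba by 3.90, Tgfb3 by 2.43, Tgfb1 by 1.65, Inhbb by 1.17 and Tgfb2 by 1.10. Of all genes 11.7% were higher in that comparison and 8.99% lower. Inhbb and Tgfb2 lost their call with the assumed dispersion of 0.1, which left 3 of the 5. The null-labelled library also had more RNA of fibroblast and mesenchyme markers. Their summed level over 14 genes was 88.4, 66.3, 766.3 and 2812 CPM, 13 of the 14 were higher in that library than in the other RA-DIFF library and none was lower. None was at 0 in either RA-DIFF library, and 1 was at 0 in each ESC library. Over the same pair of libraries 9 of 12 neuron markers were lower and none higher, with sums of 294.3, 334.4, 3033 and 1435 CPM. Of 8 endothelial markers, 4 were higher and 1 lower, and the sums were 218.9, 239.2, 29.8 and 99.0 CPM. Most of the ESC sums was Pecam1, at 180.1 and 212.4 CPM in wild-type and Htt-null ESC. Most of the RA-DIFF sums was Kdr, at 17.95 and 71.69 CPM in the wild-type-labelled and null-labelled libraries. The 8 primitive and visceral endoderm markers summed to 31.5, 20.5, 17.0 and 47.7 CPM, with 1 higher and 0 lower. The part of these cell types in the ligand differences was not tested. The paper lists more extracellular matrix organization genes as lower than as higher in its Htt-null RA-DIFF cells. That is the reverse of the mesenchyme direction by label.

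**Figure D4:**
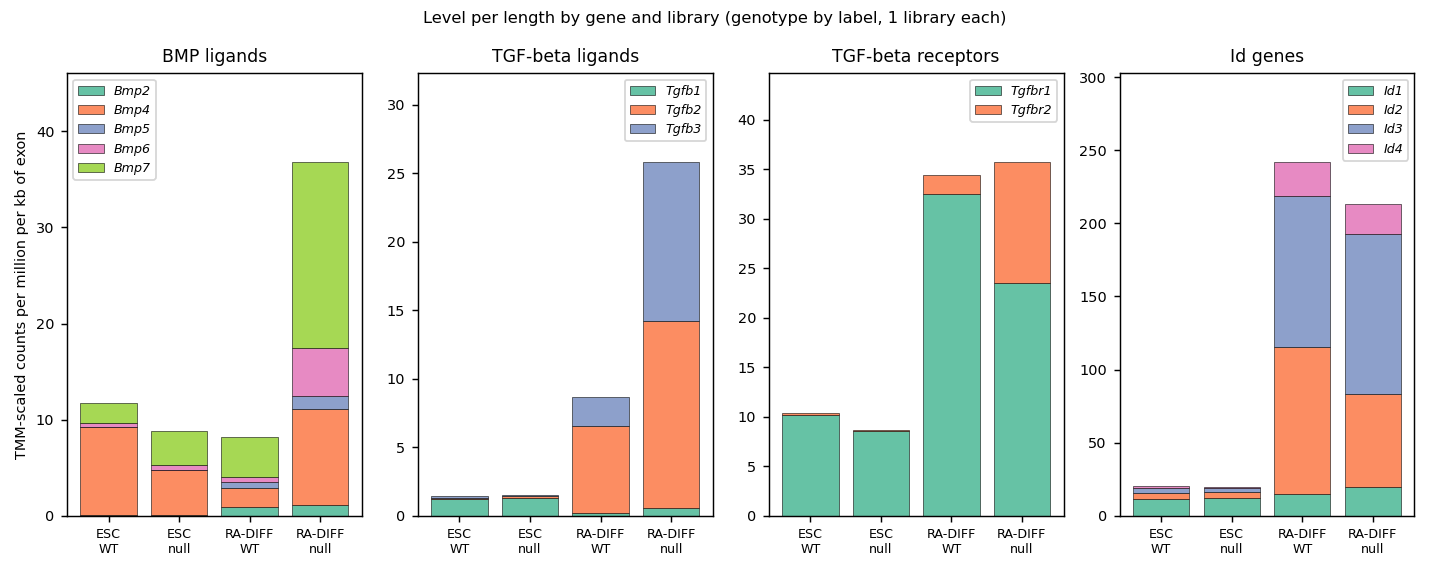
Stacked bars of level per exon length (TMM-scaled CPM per kb) for 5 BMP ligands, 3 TGF-beta ligands, the TGF-beta receptor pair and 4 Id genes in the 4 libraries, with genotype by label and 1 library per bar. Bmp4 fills most of the wild-type ESC bar and Bmp7 most of the RA-DIFF bars, Tgfb2 and Tgfb3 replace Tgfb1 in RA-DIFF, and Tgfbr2 is a large part of the pair only in the RA-DIFF bar labelled null.

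**Figure D5:**
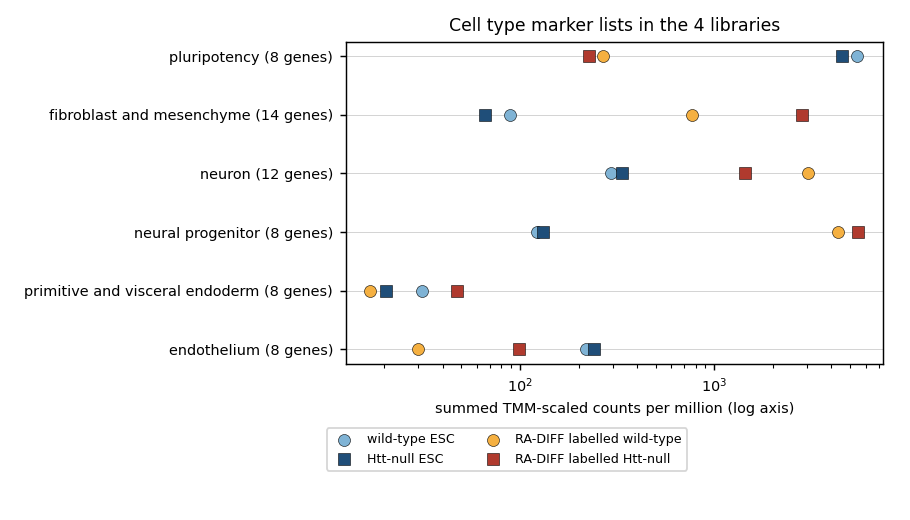
Summed TMM-scaled CPM (log axis) of 6 marker gene lists in the 4 libraries, with 1 point per library. The pluripotency sums are high in both ESC libraries, and the null-labelled RA-DIFF library lies above the wild-type-labelled one for mesenchyme (2812 against 766.3) and below it for neuron (1435 against 3033).

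The receptors were mostly higher after differentiation. In both pairs of libraries 7 of the 8 were higher in RA-DIFF, where 33.9% and 34.3% of all genes were. The exception was Acvr2b, an activin type II receptor that also binds Nodal and GDF ligands. With the assumed dispersion of 0.1, Bmpr1a lost its call in both pairs, Acvr1 under the wild-type label and Acvr2a under the Htt-null label. Acvr2b was at 30.2, 24.6, 19.1 and 7.72 CPM, with log2 ratios of -0.66, short of the limit, and -1.67. Its counterpart Acvr2a was at 26.2, 25.9, 82.0 and 62.7 CPM. Per kb, Acvr2b made up 48.5% of the 4 type II receptor genes in wild-type ESC and 42.03% in Htt-null ESC, and 15.7% and 5.13% in the wild-type-labelled and null-labelled RA-DIFF libraries. Acvr2a overlaps Orc4 on the opposite strand, which held 6766, 4678, 8938 and 7712 counts beside 2275, 1692, 9188 and 6169 for Acvr2a.

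Among the BMP receptors, Bmpr1a, the main type I receptor of early embryos, was at 136.7, 124.2, 267.0 and 299.0 CPM. It made up between 79.7% and 86.7% of the 3 BMP type I receptor genes per kb in every library. Bmpr1b, known for skeletal and neural expression, was at 1.11, 2.02, 19.4 and 18.7 CPM. It was the 1 gene of the 42 past the fold upwards in Htt-null ESC, with a log2 ratio of 0.86 (0.48 to 1.26), and in RA-DIFF the ratio was -0.05. Bmpr2, the BMP type II receptor, was at 61.7, 71.6, 178.3 and 234.3 CPM. Acvr1, a further type I receptor for BMPs, was at 15.7, 12.8, 27.6 and 43.0 CPM, higher in RA-DIFF by 0.81 and 1.74.

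Of the receptors, Tgfbr2 had the largest ratio between the RA-DIFF libraries, and its partner Tgfbr1 was not past the fold. Tgfbr1, the type I receptor, was at 66.7, 55.9, 212.5 and 153.2 CPM. Tgfbr2, the type II receptor that binds the ligand first (chr9:116087698-116175363), was at 1.17, 0.721, 15.4 and 100.6 CPM. Per kb, Tgfbr2 made up 1.38% and 1.02% of the pair in wild-type and Htt-null ESC, 5.48% in the wild-type-labelled RA-DIFF library and 34.4% in the null-labelled one. Its log2 ratio between the RA-DIFF libraries was 2.70 (2.63 to 2.78), on 9910 against 1728 counts, while that of Tgfbr1 was -0.47. In ESC the ratio of Tgfbr2 was -0.68 (-1.22 to -0.18), short of the limit and on 47 against 101 counts.

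The upstream sequence of Tgfbr2 is shown because this gene had the largest genotype difference of the receptors. It is the 250 bases before the RefSeq start on the minus strand, at chr9:116175364-116175613 on GRCm38.p6, with a GC content of 58.4%, and it holds neither motif.
Tgfbr2: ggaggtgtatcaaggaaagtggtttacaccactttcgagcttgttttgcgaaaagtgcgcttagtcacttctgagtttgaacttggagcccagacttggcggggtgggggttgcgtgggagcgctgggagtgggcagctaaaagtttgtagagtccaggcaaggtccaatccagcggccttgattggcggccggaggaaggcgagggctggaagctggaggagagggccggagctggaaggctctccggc

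Of the 8 Smads, 5 (62.5%) were past the fold with differentiation, near the 60.1% and 59.2% of all genes. In both pairs of libraries Smad1, Smad5 and Smad3 were higher in RA-DIFF, Smad6 and Smad7 were lower, and Smad2, Smad4 and Smad9 were not past the limit. With the assumed dispersion of 0.1, Smad5 lost its call under the wild-type label and Smad1 under the Htt-null label. None of the 8 was past the fold between genotypes at either stage, with log2 ratios from -0.53 to 0.73 in ESC and from -0.36 to 0.65 in RA-DIFF. Of all genes above the expression limit 8.61% were past it in ESC and 20.7% in RA-DIFF. Of the BMP-responsive Smads, Smad1 was at 28.5, 34.0, 82.1 and 63.8 CPM and Smad5 at 81.4, 78.8, 181.2 and 211.9 CPM. Smad9 was at 1.21, 2.02, 1.66 and 1.77 CPM and made up at most 2.30% of these 3 genes per kb. Smad1 lies on chromosome 8, whose 816 genes above the limit had a median log2 ratio of 0.36 between the ESC libraries and -0.22 between the RA-DIFF libraries, and the ratios of Smad1, 0.25 and -0.36, are of that order. Nog, on chromosome 11 with a median of 0.22 in ESC, is the other gene of the list on a chromosome whose ESC median stood apart, and its own ESC ratio of -0.33 is of the opposite sign.

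Of the Smads of the Nodal, activin and TGF-beta branch, Smad2 was at 68.8, 62.5, 67.6 and 79.2 CPM and Smad3 at 31.0, 31.6, 121.5 and 118.5 CPM. Smad3 made up 41.6% and 44.5% of the pair per kb in wild-type and Htt-null ESC, and 74.0% and 70.3% in the wild-type-labelled and null-labelled RA-DIFF libraries. Smad3 was past the limit with differentiation and Smad2 was not. Smad4, the common partner, was at 159.5, 128.1, 118.7 and 112.1 CPM. The inhibitory Smads are themselves induced by the pathway. Smad6, which acts mainly on BMP receptors, was at 10.5, 10.7, 2.99 and 3.73 CPM, and Smad7, which acts on both branches, at 56.9, 39.3, 5.61 and 8.83 CPM. Together they were at 15.9, 12.0, 2.18 and 3.12 CPM per kb. The inhibitory Smads were thus lower in RA-DIFF, where most receptors were higher.

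Of the Id genes, Id2, Id3 and Id4 were far higher in RA-DIFF and Id1 was not past the limit. Id1 was at 13.3, 13.9, 17.5 and 22.6 CPM, with log2 ratios of 0.39 and 0.70, and with the RA-DIFF labels exchanged the wild-type ratio would be 0.76, just past it. Id2 was at 10.6, 9.90, 244.7 and 155.1 CPM, Id3 at 5.32, 4.98, 184.7 and 195.8 CPM, and Id4 at 6.64, 3.60, 90.3 and 80.4 CPM. The ratios of these 3 genes ran from 3.76 to 5.29. Per kb, Id1 made up 55.9% and 60.7% of the 4 genes in wild-type and Htt-null ESC and 6.23% and 9.15% in the wild-type-labelled and null-labelled RA-DIFF libraries. Id3 made up 42.6% and 51.2% there, and the sum was 20.5, 19.8, 242.2 and 213.3 CPM per kb. Id4 was lower in Htt-null ESC, with a log2 ratio of -0.88 (-1.11 to -0.66) on 235 against 576 counts. Between the RA-DIFF libraries none of the 4 was past the fold, where 20.7% of all genes were, and Id2 was nearest to it at -0.66. The BMP ligands that differed there, Bmp4, Bmp5, Bmp6 and Bmp7, were higher in the null-labelled library, whereas the log2 ratios of Id1, Id2, Id3 and Id4 were 0.37, -0.66, 0.08 and -0.17.

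The sequences upstream of Id2 and Id4 are shown because both genes were higher in RA-DIFF in both pairs of libraries and both windows hold GGCGCC. They are the 250 bases before the RefSeq starts on GRCm38.p6, at chr12:25096093-25096342 on the minus strand for Id2 and at chr13:48260866-48261115 on the plus strand for Id4, with GC contents of 62.8% and 75.6%.
Id2: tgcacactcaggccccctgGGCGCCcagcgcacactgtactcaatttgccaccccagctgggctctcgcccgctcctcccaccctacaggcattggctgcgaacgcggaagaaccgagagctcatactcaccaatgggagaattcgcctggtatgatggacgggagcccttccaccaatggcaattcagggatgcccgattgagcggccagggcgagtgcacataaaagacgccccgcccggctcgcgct
Id4: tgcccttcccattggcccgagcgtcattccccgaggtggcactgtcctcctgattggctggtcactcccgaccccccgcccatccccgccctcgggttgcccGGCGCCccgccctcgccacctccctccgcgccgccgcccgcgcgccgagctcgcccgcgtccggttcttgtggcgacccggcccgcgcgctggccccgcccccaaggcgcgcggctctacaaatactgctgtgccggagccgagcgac
Capitals mark GGCGCC, which reads the same on both strands and begins at -231 in Id2 and -148 in Id4. Of the 29 genes with a window, 9 hold this motif: Bmpr1a, Bmpr2, Chrd, Grem1, Id2, Id4, Smad5, Smad9 and Tgfbr1. That is 10 of their 34 windows, where 11.87% of all 32851 windows hold it. The motif is a description of GC-rich letters and not of a site in use.

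Of the secreted antagonists, Noggin and Chordin followed the stage. Nog, which sequesters BMPs, was at 0.853, 0.675, 9.28 and 8.50 CPM, with log2 ratios of 3.41 and 3.61. Chrd, with the same action, was at 2.17, 1.63, 10.7 and 12.3 CPM, with ratios of 2.29 and 2.90. Chrd overlaps Thpo on the opposite strand, which held 66.5% and 83.0% as many counts as Chrd in wild-type and Htt-null ESC but 7.83% and 6.94% in RA-DIFF, so its ESC level is the less certain one. Per kb, the 5 antagonists summed to 2.07, 1.43, 9.84 and 9.71 CPM, and Nog made up 55.7% and 51.6% of the RA-DIFF sums.

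The other 3 differed between genotypes. Fst, follistatin, which binds activins, was at 3.09, 2.79, 8.07 and 3.46 CPM, lower in the null-labelled RA-DIFF library with a log2 ratio of -1.21 (-1.40 to -1.04). In that library the activin subunit genes Inhba and Inhbb were higher. Grem1, a BMP antagonist of limb and gut, was at 1.94, 0.506, 2.11 and 1.94 CPM. Htt-null ESC stood apart from the other 3 libraries, with a ratio of -1.89 (-2.52 to -1.39) to wild-type ESC on 33 against 168 counts, the largest of the 42 genes in ESC among those above the limit. Bmper, which binds BMPs and modulates them in either direction, was at 0.381, 0.199, 1.86 and 7.29 CPM. Its ratio was -0.86 in ESC, on 13 against 33 counts with an interval of -1.98 to 0.03, and 1.96 (1.75 to 2.20) in RA-DIFF, on 718 against 208 counts.

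Members on either side of the fold limit in ESC were Bmpr1b at 0.86 inside and Bmp7 and Smad9 at 0.73 outside, and Bmper at -0.86 and Id4 at -0.88 inside and Tgfbr2 at -0.68 outside. In RA-DIFF the genotype ratios nearest to the limit were those of Lefty2, Acvr1, Smad7 and Id2, all outside.

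The surrounding pathway was read from 71 further symbols of ligands, receptors, antagonists, regulators and known targets, of which 68 were in the table and 52 passed the expression limit. Under the wild-type label 21 of these 52 were higher and 15 lower in RA-DIFF, where 33.9% of all genes were higher and 26.1% lower, and under the Htt-null label 25 were higher and 11 lower, where 34.3% and 24.8% of all genes were. Between the ESC genotypes 5 were higher in Htt-null and 2 lower, where 5.14% and 3.47% of all genes were. Between the RA-DIFF libraries 18 were higher in the null-labelled one and 7 lower, where 11.7% and 8.99% of all genes were. Among the 3 most different in each direction with at least 100 counts, the TGF-beta targets Ctgf and Tgfbi were higher in the null-labelled RA-DIFF library by log2 ratios of 2.69 (9941 against 1750 counts) and 2.52 (5843 against 1159). Nbl1, a BMP antagonist, was higher by 2.55 (6270 against 1217 counts). Foxh1, the partner of Smad2 and Smad3 in Nodal signalling, had a ratio of -2.53 (25 against 176 counts), the ligand Gdf10 one of -2.34 (156 against 911) and the BMP target Msx2 one of -1.93 (75 against 332). The listed targets did not share 1 direction. Dlx5, Atoh8 and Hey1 were higher in the null-labelled library by 1.80, 1.24 and 0.81, and Gata2 had a ratio of -1.01. In ESC, Ltbp4, which holds latent TGF-beta in the matrix, had a ratio of -0.76 (10415 against 23372 counts).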

How the data were processed

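RNA-seq was used for 4 libraries, 1 per condition, and the small RNA libraries of the series were not used. Per the labels and the paper's methods, poly-A RNA went into strand-specific dUTP libraries, and the authors aligned paired-end reads to GRCm38.p4 with TopHat2 2.0.14 and assigned them to GENCODE genes with HTSeq 0.6.1. The deposited values are raw counts, not normalized, and no replicates were pooled. The methods give default settings for HTSeq apart from its overlap mode and do not name the strand option. Gene positions are those deposited with the counts. The deposited annotation is older than GENCODE vM21, which gave exon lengths for 32304 of the 32567 genes.

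TMM factors over the 4 libraries and log2 ratios with a prior count of 2 were computed with edgeR 4.0.16 (R 4.3.3). Tables and figures were made with Python 3.11.15, pandas 2.3.3, scipy 1.17.1 and matplotlib 3.10.9. A gene was past the fold above 0.75 in size with an average log2 CPM above 0. With 1 library per condition there are no replicates to estimate a dispersion from. The results therefore rest on the fold alone and no p-value is printed. The limit for a count of 0 was set at 3 counts, which is 0.0268 to 0.0460 CPM. Alternatives were another scaling, prior count, filter and fold limit, edgeR's exact test at a p limit of 0.05 with an assumed dispersion of 0.1 or 0.01, and exchanged RA-DIFF labels.

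The 42 genes, the further pathway genes, the marker lists and the motifs were chosen with earlier results of these data known. Values in every library were printed for each of the 42 genes past the fold in any comparison or at 10 CPM or more in any library, and of the further pathway genes for at most 3 per direction and stage with at least 100 counts. Ratios of Dlx5, Atoh8, Hey1 and Gata2 were added beside that of Msx2. Upstream sequences are from RefSeq on GRCm38.p6, which had a window for 29 of the 42 genes. Those without are Bmp2, Bmp7, Gdf3, Gdf6, Lefty1, Lefty2, Tgfb3, Smad2, Smad4, Smad7, Id1, Nog and Fst. A further pathway gene that the naming rule would have picked is not reported here.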

Additional observations from a re-analysis of the deposited data

Results flagged for a closer look

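Bmp4, Inhba and Bmper moved in opposite directions under the same contrast, each with 1 library per condition, and none of these differences was tested. Between genotypes Bmp4 had a log2 ratio of -0.98 in ESC and 2.37, by label, in RA-DIFF, and a ratio of RA-DIFF over ESC of -2.24 under the wild-type label and 1.11 under the Htt-null label. Its ESC call was lost with a fold limit of 1 and with an assumed dispersion of 0.1, and its call with differentiation under the Htt-null label with that dispersion. Inhba had a ratio of RA-DIFF over ESC of -2.04 under the wild-type label and 2.33 under the Htt-null label, on at most 305 counts in any library. Bmper had a genotype ratio of -0.86 in ESC, with a counting interval that reaches 0.03, and 1.96 in RA-DIFF. With the RA-DIFF labels exchanged, the genotype ratios of Bmp4 and Bmper would have the same sign at both stages. The responses to differentiation would then be 0.13 in wild-type and -1.26 in Htt-null cells for Bmp4, and 1.86 and -1.57 for Inhba, so that only Inhba would be past the fold in opposite directions.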

How the results depend on the processing

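No paired analysis was run, and each condition has 1 library. The count of genes higher in Htt-null ESC was 1, and became 3 with library size alone as the scaling (Bmp7 and Smad9 added) and 0 with a fold limit of 1 or with an assumed dispersion of 0.1. The count lower there was 4, and became 1 under each of the latter settings, where Grem1 was the gene left. With the RA-DIFF labels exchanged, the 11 higher and 5 lower genes of the RA-DIFF genotype comparison became 5 higher and 11 lower, and with differentiation Fst and Bmp4 lost and Bmp6, Id1 and Acvr2b gained a call in wild-type, while Bmp7, Bmp6 and Acvr2b lost and Fst gained one in Htt-null. All other counts stayed within 1.5 times under the alternatives run. The counts with differentiation ran from 19 to 25 higher and 10 to 11 lower under the wild-type label and from 22 to 27 higher and 9 to 11 lower under the Htt-null label. Those between the RA-DIFF libraries ran from 8 to 12 higher and 4 to 5 lower apart from the exchange. An assumed dispersion of 0.1 removed Fst, Bmp5, Inhbb and Tgfb2 from the latter, and with differentiation it removed Bmp7, Smad5, Bmpr1a and Acvr1 under the wild-type label and Tgfb1, Bmpr1a, Bmp4, Smad1 and Acvr2a under the Htt-null label. A fold limit of 1 removed Bmp7, Bmpr1a and Acvr1 under the wild-type label and Smad1 under the Htt-null label. A limit of 100 counts in the higher library removed Inhba under the wild-type label and Bmper in ESC, and an assumed dispersion of 0.01 also removed Bmper in ESC. Every gene past the fold kept its direction under RLE scaling, library size alone and a prior count of 0.5, and the scalings moved no ratio of these genes by more than 0.07. With a prior count of 0.5, ratios of genes with few counts moved by up to 2.0. Depth limits Bmp5 and Gdf6 in ESC and Tdgf1, Nodal, Gdf3 and Lefty2 in RA-DIFF. With 1 library per condition there were no replicates to estimate biological spread from, and no test with such an estimate was fitted.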
